A study of Mus musculus with 2 samples.

Results

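Hox genes encode the homeodomain transcription factors that give cells along the trunk their position between head and tail. Every gene symbol made of Hoxa, Hoxb, Hoxc or Hoxd followed by digits only was taken from the feature list, which gave 39 genes out of 31053 features. Their UMIs were then described by paralog group, by cell class and by library. The libraries were 10x single-cell RNA-seq of the aorta-gonads-mesonephros (AGM) region, the part of the mouse embryo around the dorsal aorta, at E11. The WT library came from PDGFRB +/+ embryos and the KO library from PDGFRB -/- embryos, whose germline deletion removes the PDGFRβ receptor from all cells, both on a C57BL/6J background. Each genotype was 1 library loaded for the recovery of 7000 cells, and the number of embryos behind a library is not given in the sources used here.

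Hox genes lie in clusters, and their order along the chromosome matches both the order in which they are switched on and the position along the body axis where their expression starts. Members at the same place in different clusters are paralogs and share a number, low numbers being anterior and high numbers posterior. Hox proteins bind DNA together with TALE cofactors of the Pbx and Meis families, retinoic acid, Fgf, Wnt and Cdx factors open the clusters in the elongating embryo, and Polycomb proteins keep the unused part silent. In GRCm38 the Hoxa cluster held 11 members on chr6:52155590-52260880, the Hoxb cluster 10 on chr11:96194316-96368256, the Hoxc cluster 9 on chr15:102921103-103036852 and the Hoxd cluster 9 on chr2:74668310-74765142. Paralog groups 1 to 13 are written Hox1 to Hox13, and Hox10 to Hox13 are called posterior below.

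The promoters of 5 members are shown, each as the 250 bases before the transcription start, 5′ to 3′ on the gene's strand, from RefSeq on GRCm38.p6. Hoxb1 and Hoxd9 had the lowest and the highest KO over WT ratio among members with 100 or more UMIs. Hoxb8 is 1 of the trunk genes and need not be typical of them. Hoxa13 and Hoxd13 are the most posterior members of their clusters. Capitals mark matches on either strand to TGATNNAT, the joint site of Pbx and Hox proteins, and to TTTATNG, the site of Cdx factors. The windows are chr11:96365508-96365757 (plus strand) for Hoxb1, chr2:74697513-74697762 (plus) for Hoxd9, chr11:96281655-96281904 (plus) for Hoxb8, chr6:52260881-52261130 (minus) for Hoxa13 and chr2:74667975-74668224 (plus) for Hoxd13.
Hoxb1: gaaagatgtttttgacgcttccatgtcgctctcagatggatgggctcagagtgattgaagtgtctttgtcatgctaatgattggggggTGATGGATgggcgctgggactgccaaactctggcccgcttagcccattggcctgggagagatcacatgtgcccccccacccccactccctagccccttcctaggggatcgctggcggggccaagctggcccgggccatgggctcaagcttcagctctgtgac
Hoxd9: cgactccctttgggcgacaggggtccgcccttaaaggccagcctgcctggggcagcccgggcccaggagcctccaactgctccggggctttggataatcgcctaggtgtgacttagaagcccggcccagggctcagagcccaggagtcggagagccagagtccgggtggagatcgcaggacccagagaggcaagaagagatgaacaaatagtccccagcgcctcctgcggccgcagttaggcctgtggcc
Hoxb8: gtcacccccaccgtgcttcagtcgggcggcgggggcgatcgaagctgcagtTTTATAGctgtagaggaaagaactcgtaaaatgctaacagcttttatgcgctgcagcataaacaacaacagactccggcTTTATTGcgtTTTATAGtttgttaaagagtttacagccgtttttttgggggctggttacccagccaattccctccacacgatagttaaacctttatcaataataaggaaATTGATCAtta
Hoxa13: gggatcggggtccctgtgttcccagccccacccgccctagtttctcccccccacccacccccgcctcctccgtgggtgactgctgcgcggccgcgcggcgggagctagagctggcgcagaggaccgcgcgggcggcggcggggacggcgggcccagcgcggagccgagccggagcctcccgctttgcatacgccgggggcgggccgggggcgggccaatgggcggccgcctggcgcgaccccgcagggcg
Hoxd13: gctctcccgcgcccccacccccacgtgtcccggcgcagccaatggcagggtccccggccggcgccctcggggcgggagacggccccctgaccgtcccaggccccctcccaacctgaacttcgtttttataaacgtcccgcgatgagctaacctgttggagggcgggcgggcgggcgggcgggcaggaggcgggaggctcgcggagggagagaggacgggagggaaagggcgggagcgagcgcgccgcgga
The Hoxb1 window held 1 Pbx-Hox match and the Hoxb8 window 1 Pbx-Hox match beside 3 Cdx matches, with no overlap between matches. No letters of these motifs, of the Meis site TGACAG or of the retinoic acid receptor half-site AGGTCA were found in the Hoxd9, Hoxa13 and Hoxd13 windows. GC content went from 44.4% in Hoxb8 over 59.2% in Hoxb1, 65.2% in Hoxd9 and 74.4% in Hoxd13 to 80.0% in Hoxa13. RefSeq entries were found for 22 of the members (24 promoters), with a median GC of 58.6% against 52.4% for all 32851 mouse promoters. A Pbx-Hox match was present in 4 of the 24 Hox promoters and in 7.68% of all promoters, and a Cdx match in 2 and in 9.81%. The Meis site was present in 2 of the 24 and in 15.9% of all, and the retinoic acid receptor half-site in 6 of the 24 and in 14.02%. A match describes letters and not a bound factor.

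Barcodes with at least 2000 UMIs and under 10% mitochondrial UMIs were kept, 8253 in WT and 8165 in KO, with a median of 13321 and 12391 UMIs, and 20 barcode sequences were shared by the libraries. CPM are counts scaled to an equal UMI total of 1000000. Pdgfrb, the deleted gene, was at 43.1 CPM in WT (95% interval 42.1 to 44.2) and at 7.09 in KO (6.66 to 7.55), and 33.8% and 9.81% of barcodes held a Pdgfrb UMI. Whether the counted end of the transcript lies in the deleted part is not given in the sources used here. Xist, which is transcribed from the inactive X chromosome, was at 793 CPM in WT and 0.41 in KO, and the Y-linked Ddx3y at 0.0067 and 56.7 CPM. Genotype, sex and library therefore changed together and cannot be told apart. With 1 library per genotype no difference was tested, and all intervals, exact Poisson for CPM, exact binomial for shares and exact conditional for log2 ratios of KO over WT, cover counting error only, at 95%. Cell classes were gated on non-Hox markers, and 10 classes held 50 or more barcodes in both libraries. All 5 check markers, which played no part in the gate, were highest in their own class for coelomic-gonadal-like, endothelial-like, erythroid-like, macrophage-like, muscle-like, neural-like and smooth-muscle-like cells, against 4 of 5 for sclerotome-like and 3 of 5 for splanchnic-like cells. A gate meant for limb mesenchyme passed for 2 of 5, with Fgf10 at 2.81 and 4.15 CPM and Pax3 at 0.67 and 0.32, and its cells were led by Pitx1, Tbx4 and Tbx5. They are called Pitx1/Tbx4/Tbx5-gated cells here.

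The family held 141725 UMIs in WT and 149934 in KO, or 944 CPM (939 to 949) and 1054 CPM (1049 to 1060), and 89.3% and 94.1% of barcodes held at least 1 Hox UMI, against 33.0% and 33.2% in erythroid-like cells, the background class, whose median depth was 16375 and 19285 UMIs. With every barcode thinned to 2000 UMIs these shares were 70.8% and 77.3% over all kept barcodes and 7.69% and 7.21% in erythroid-like cells. All 39 members had a UMI in both libraries. The KO over WT log2 ratio of the sum was 0.16 (0.15 to 0.17), but in the KO weighted to the class mix of WT it was 0.0044. Over all kept barcodes a change in cell mix and a change in level per cell cannot be told apart, and erythroid-like cells, which held 76.9 and 84.3 Hox CPM, numbered 702 in WT and 208 in KO.

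The trunk groups dominated. Hox4 to Hox8, which pattern the cervical to thoracic trunk, made up 56.9% of Hox UMIs in WT and 55.2% in KO. Hox1 to Hox3, the hindbrain and neck groups, made up 7.33% and 6.95%, Hox9 12.3% and 13.2%, and the posterior groups 23.4% and 24.7%. The posterior share was 1.26 percentage points higher in KO (0.948 to 1.57). Over the alternatives run it was between 0.0795 and 5.05 points higher. The lowest value came when KO barcodes with a Pdgfrb UMI were removed, while such WT barcodes stayed in. Hox8 was the highest group, at 215 CPM in WT and 207 in KO, followed on the anterior side by Hox7 at 114 and 132, Hox6 at 89.4 and 105, Hox5 at 59.5 and 66.2 and Hox4 at 59.5 and 71.6. On the posterior side Hox9 was at 116 and 139, Hox10 at 112 and 149, Hox11 at 59.8 and 69.1, Hox12 at 11.4 and 10.2, and Hox13 at 37.5 and 32.5. The levels did not fall steadily from Hox8, since Hox13 was above Hox12 in both libraries and Hox10 above Hox9 in KO. At the anterior end Hox1 was at 2.22 and 1.61, Hox2 at 29.8 and 29.4, and Hox3 at 37.2 and 42.3 CPM. Hox10 had the highest group ratio (log2 0.40, 0.37 to 0.43) and Hox1 the lowest (-0.46, -0.71 to -0.21). Among clusters, Hoxc gave the most UMIs (397 and 439 CPM), then Hoxa (263 and 328), Hoxb (163 and 157) and Hoxd (121 and 130).

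A single paralog carried most of several groups. Hoxc8, which patterns the thoracic skeleton, was the highest member of all at 186 CPM in WT (183 to 188) and 175 in KO (173 to 177). Hoxa7 reached 97.5 and 115 CPM, and Hoxc6, a marker of the cervicothoracic boundary, 68.5 and 86.9 CPM. In the groups behind them Hoxc9 led at 45.1 and 50.6 CPM, Hoxc10 at 52.1 and 66.1, Hoxd11 at 41.7 and 45.7, Hoxd12 at 11.1 and 10.1, and Hoxd13 at 23.2 and 18.9. These last are genes of the lumbar to caudal trunk, limb and cloacal region. Anteriorly, Hoxa5, needed for lung and diaphragm development, led Hox5 at 32.4 and 39.1 CPM, Hoxb4 led Hox4 at 29.99 and 30.13, Hoxb3 led Hox3 at 21.4 and 22.2, and Hoxb2 led Hox2 at 24.5 and 22.7. Gene models overlap within the Hoxc, Hoxa and Hoxd clusters. The Hoxc5 model covers Hoxc6, Hoxc8 and Hoxc9 and overlaps Hoxc10. The Hoxa3 model covers Hoxa4, Hoxa5 and Hoxa6, and the Hoxd3 model covers Hoxd4. The split of UMIs among these members is therefore uncertain. Hoxd4 stood under 2 identifiers, with 36 and 38 UMIs under ENSMUSG00000101174 and 164 and 206 under ENSMUSG00000115956 in WT and KO.

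**Figure D1:**
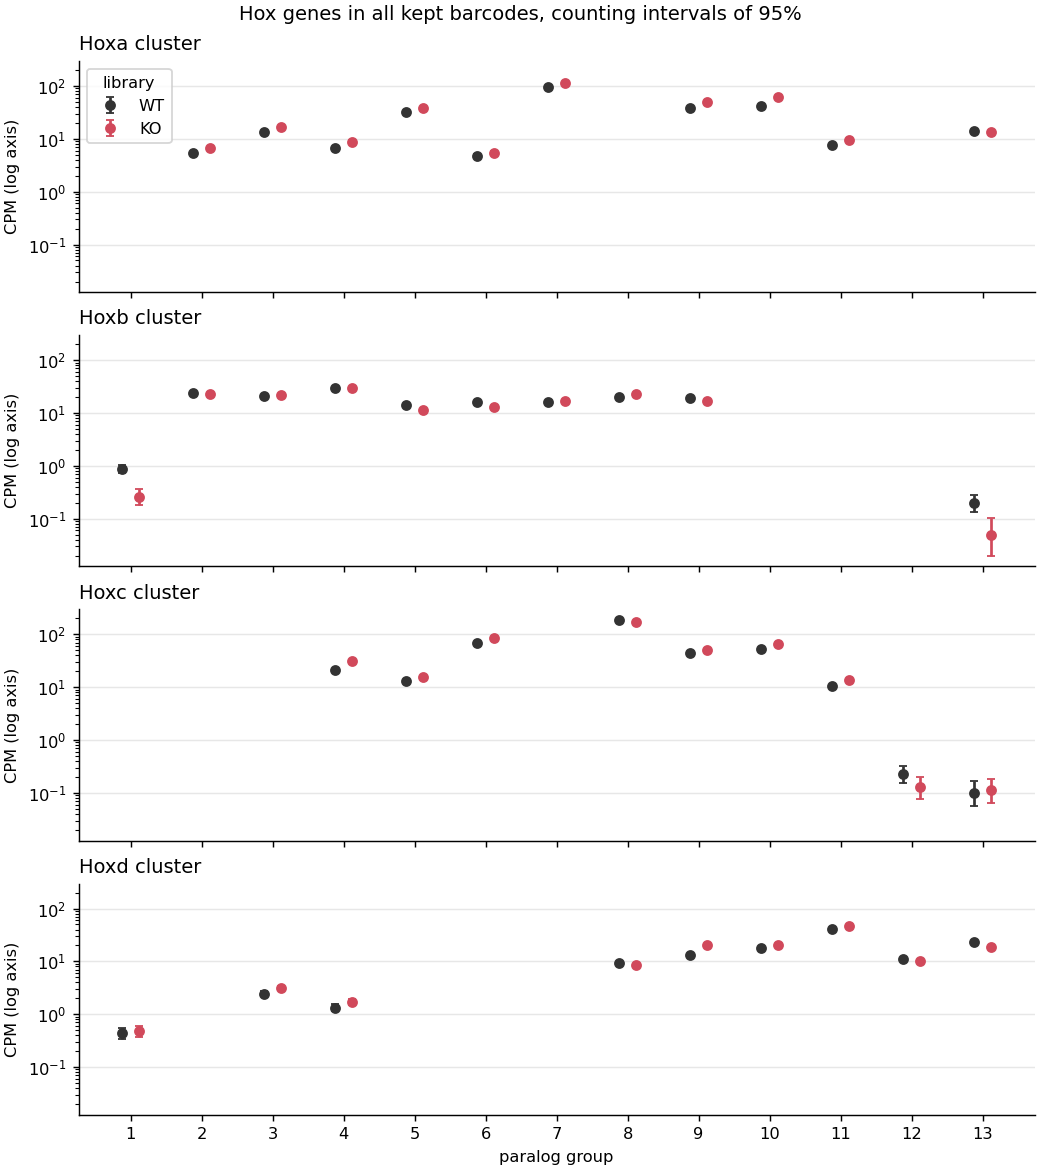
CPM of 38 Hox genes (log axis) against paralog group in 1 panel per cluster, with WT and KO points and 95% counting intervals. In both libraries the values peak at Hoxa7 (97.5 and 115 CPM) and Hoxc8 (186 and 175), and Hoxb1 is the member with 100 or more UMIs whose points lie farthest apart (0.87 and 0.26).

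Most members differed little between the libraries. Of the 36 members with 100 or more UMIs, 25 had a log2 ratio above 0, a count not made over all genes. The members' median was 0.19 against 0.06 for all 14987 genes with as many UMIs. Only Hoxd9 was past 1.5-fold higher in KO, where 5.75% of all genes were, and only Hoxb1 past 1.5-fold lower, where 5.06% were. The counting interval lay above 0 for 21 members and below 0 for 9, but the same count was not made over all genes. With many UMIs an interval leaves out 0 at a small ratio, as for Hoxc8 (-0.08, -0.11 to -0.06). Hoxd9 was at 13.3 CPM in WT and 20.7 in KO (log2 0.64, 0.55 to 0.72). No member was past the fold higher when the KO was weighted to the WT class mix or when erythroid-like barcodes were left out. In both settings 1 member was past it lower. Over all alternatives run, the count of members higher went from 0 to 8, reaching 8 with under 5% mitochondrial UMIs. The share over all genes was not counted in the alternatives. Next came Hoxa10 at 42.4 and 61.8 CPM (0.55), Hoxc4 at 21.5 and 30.9 (0.52), Hoxa4 at 6.60 and 8.87 (0.43), and Hoxa9 at 38.1 and 50.7 (0.41). Below 0 and after Hoxb1 stood Hoxb6 at 16.1 and 12.9 CPM (-0.31), Hoxd13 at 23.2 and 18.9 (-0.30), Hoxb5 at 14.1 and 11.5 (-0.29), and Hoxb9 at 19.5 and 17.2 (-0.18). Hoxb13, Hoxc12 and Hoxc13, the last genes of their clusters, had fewer than 100 UMIs, with 30, 34 and 15 in WT and 7, 18 and 16 in KO.

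Hoxb1, the gene of hindbrain rhombomere identity and foregut mesoderm, was, among members with 100 or more UMIs, the one farthest from 0, with 130 UMIs in WT and 37 in KO (log2 -1.73, -2.30 to -1.20). In WT it was at 10.3 CPM in gastro-splenic-like cells, gated on Barx1, Tlx1 and Nkx2-5, at 2.23 in barcodes that met several gates and at 0.44 or less in each other class. The KO held 4 gastro-splenic-like barcodes against 137 in WT, and Barx1, the stomach mesenchyme gene, was at 35.1 CPM in WT and 0.72 in KO. Cells that met this gate were thus nearly absent from the KO library. Whether such cells were missing or were present without the gate genes was not tested. A difference in dissection and one in genotype cannot be told apart.

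Cell classes differed in how much Hox they held. Sclerotome-like cells, the precursors of vertebrae and ribs, held the most, 1629 CPM in WT and 1635 in KO. Muscle-like (997 and 633), neural-like (948 and 926), splanchnic-like (906 and 885), smooth-muscle-like (857 and 925) and coelomic-gonadal-like cells (845 and 773) followed. This order is that of WT. In KO muscle-like cells (633) lay below each other class just listed and below Pitx1/Tbx4/Tbx5-gated cells. Smooth-muscle-like cells were above splanchnic-like cells in KO only. Pitx1/Tbx4/Tbx5-gated cells held 707 and 702 CPM, endothelial-like cells 487 and 437, and macrophage-like cells 137 and 146. Erythroid-like cells, at 76.9 and 84.3 CPM, were lowest and were taken as the background. Free RNA held 861 Hox CPM in both libraries and was estimated at 1.37% of the UMIs of a WT barcode and 1.81% of a KO barcode, which brings 11.8 and 15.6 Hox CPM. The level in erythroid-like cells was above that, and its source was not tested.

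**Figure D2:**
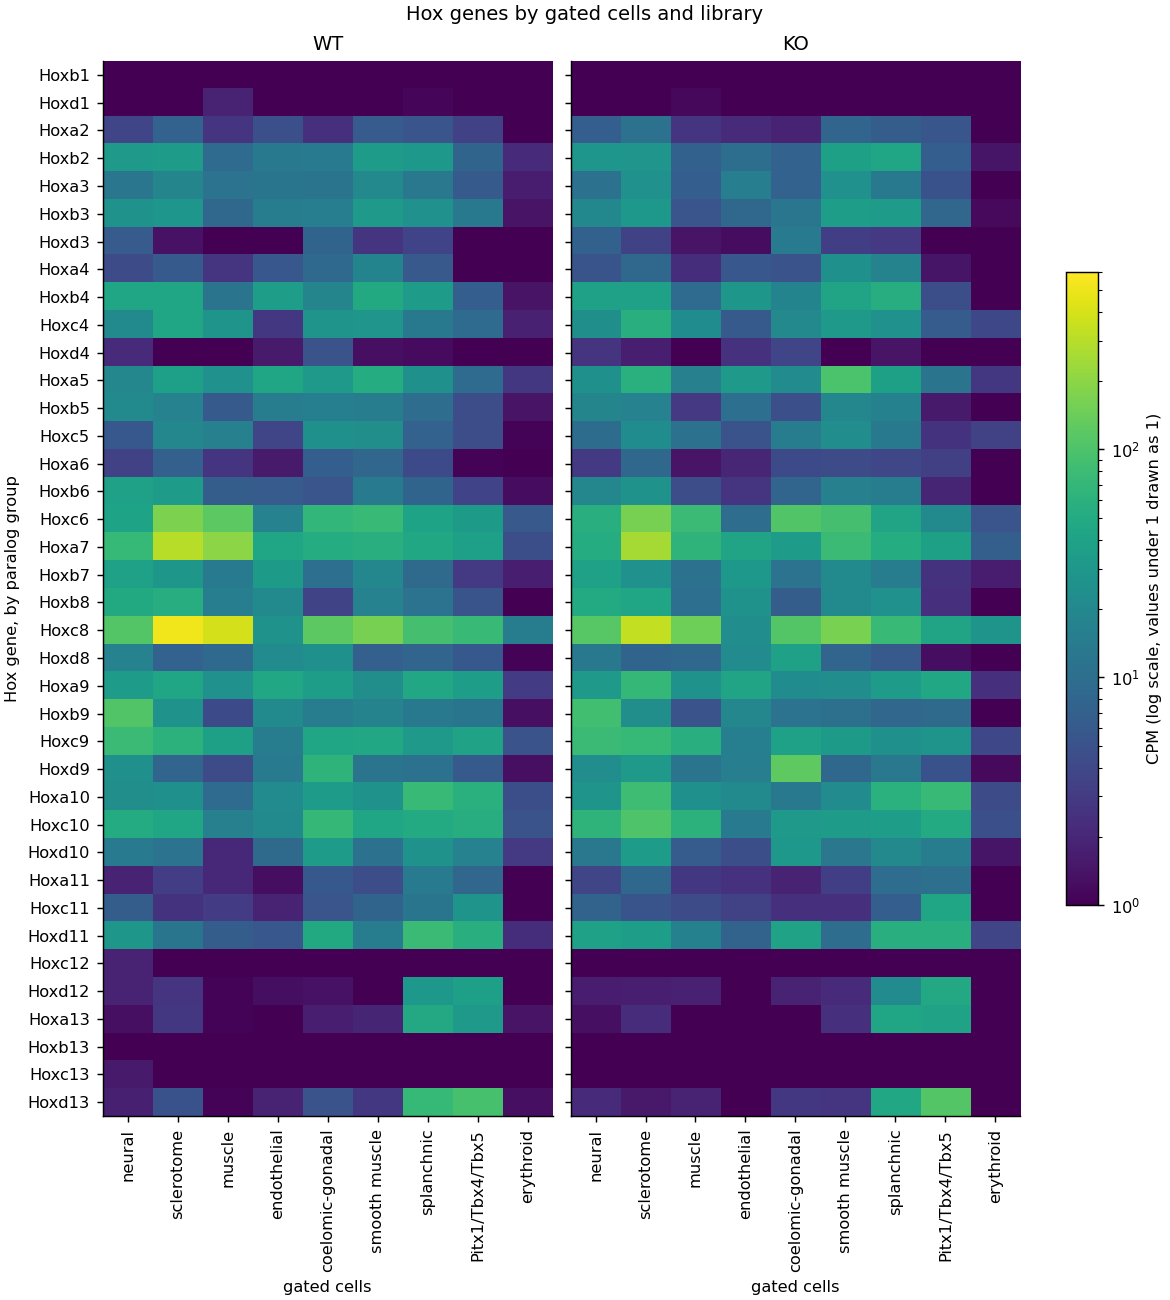
CPM of 38 Hox genes (rows, by paralog group) in 9 gated cell classes (columns) in WT and KO, on a log colour scale. The sclerotome-like columns of both libraries and the WT muscle-like column are brightest at Hoxa7 and Hoxc8. The KO muscle-like column is brightest at Hoxc8 (146 CPM) and Hoxc6 (78.7). Splanchnic-like and Pitx1/Tbx4/Tbx5-gated columns are the only ones bright at Hoxa13 and Hoxd13, and the erythroid-like column is dark throughout.

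Each class had its own mixture of clusters and groups. Over 8 classes, without the erythroid-like and macrophage-like cells, 23 of the 36 members were highest in the same class in WT and in KO. The same count was not made over all genes. Hoxc dominated the paraxial cells of WT. In sclerotome-like cells Hoxc gave 52.9% of Hox UMIs and Hoxd 3.02%, and in muscle-like cells, the myogenic precursors, 61.8% and 2.64%. Hoxc8 alone was at 524 CPM in WT sclerotome-like and 396 CPM in WT muscle-like cells, and Hoxa7 at 300.003 and 195. In KO Hoxc8 was at 337 CPM in sclerotome-like and 146 in muscle-like cells, and Hoxa7 at 252 and 64.3. Neural-like cells, of the sympathetic and Schwann cell lineages, drew on Hoxb for 37.7% of Hox UMIs in WT and 32.5% in KO, with Hoxb9 at 107 and 87.0 CPM and Hoxc9 at 77.6 and 78.0, each the highest value of that gene over the 8 classes.

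Endothelial-like cells used few Hoxc transcripts. Hoxa and Hoxb gave 37.4% and 33.0% of their Hox UMIs in WT and 38.2% and 31.5% in KO, and Hoxc 18.0% and 17.8%. Hoxc8 was at 26.2 and 23.0 CPM there, lower than in any of the other 7 classes, whereas Hoxa5 was at 42.7 and 31.4 and Hoxd8 at 22.1 and 21.7. Over the same 8 classes, coelomic-gonadal-like cells had the highest Hoxd9, at 64.4 CPM in WT and 124 in KO, and the highest Hoxd8, at 24.9 and 38.6. Hoxd3 (7.84 and 13.7) and Hoxd4 (5.11 and 3.77) were also highest there in both libraries. The nephric-like cells, too few to be among the 8 classes (17 and 21 barcodes), held Hoxd8 at 37.7 and 17.9 CPM and Hoxd4 at 1.57 and 4.78. Smooth-muscle-like cells, gated on Acta2 with contractile genes, led the 8 classes in Hoxa5, at 52.3 and 98.9 CPM, and in Hoxa4, at 18.1 and 24.99. In WT, gastro-splenic-like cells exceeded them, with Hoxa5 at 82.6, Hoxb2 at 91.3, Hoxb4 at 69.1 and Hoxb5 at 61.9 CPM, and Hoxb gave 46.0% of their Hox UMIs.

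The position of cells along the axis was not measured, and the classes differed in the posterior share of their Hox UMIs. This share was lowest in WT muscle-like (4.27%, 3.65 to 4.97) and sclerotome-like cells (6.62%, 6.26 to 6.99). It was between 11.3% and 14.2% in gastro-splenic-like, smooth-muscle-like, endothelial-like and neural-like cells, and 24.4% in coelomic-gonadal-like cells. In splanchnic-like cells, the mesenchyme of gut and body organs, it was 45.3% (44.2 to 46.3), and in Pitx1/Tbx4/Tbx5-gated cells 54.0% (52.6 to 55.4). The WT sclerotome-like share was thus 38.6 points below the splanchnic-like share, and 26.4 points below it when barcodes of several gates were assigned to 1 class. In KO the order differed: splanchnic-like (34.1%) and Pitx1/Tbx4/Tbx5-gated cells (63.7%) remained highest, but muscle-like cells reached 18.9%, sclerotome-like 16.7%, neural-like 17.4% (16.4 to 18.4) and coelomic-gonadal-like 16.2% (14.4 to 18.0), the last intervals overlapping.

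**Figure D3:**
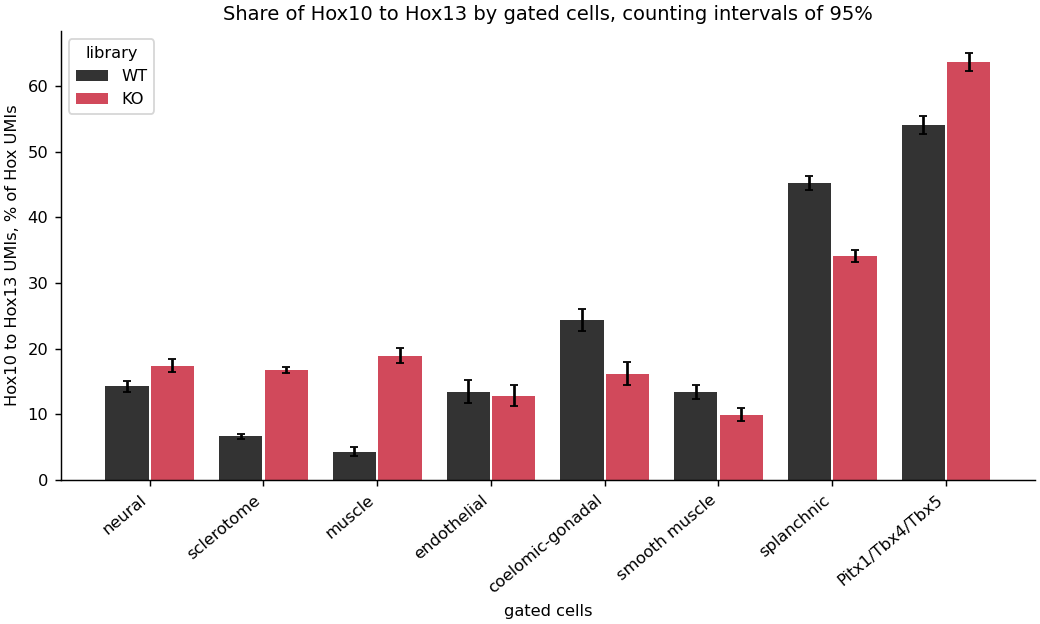
Hox10 to Hox13 UMIs as a percentage of all Hox UMIs (bars from 0, 95% binomial counting intervals) for 8 gated cell classes in WT and KO. Sclerotome-like (6.62 and 16.7%) and muscle-like bars (4.27 and 18.9%) are higher in KO, and splanchnic-like (45.3 and 34.1%) and coelomic-gonadal-like bars (24.4 and 16.2%) are lower.

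Hox13, the terminal group expressed around the cloaca and in the autopod, was, among the 10 classes of 50 or more barcodes, concentrated in splanchnic-like and Pitx1/Tbx4/Tbx5-gated cells. Hoxd13 was at 73.5 CPM in WT and 46.9 in KO in the former and at 94.2 and 108 in the latter, and Hoxa13 at 48.0 and 44.3 and at 31.4 and 39.9. At least 1 Hox13 UMI was found in 55.0% and 43.8% of splanchnic-like and in 67.2% and 77.0% of Pitx1/Tbx4/Tbx5-gated barcodes. The same share was 4.67% and 3.35% in sclerotome-like and 6.64% and 4.71% in neural-like cells, against 3.42% and 1.92% in erythroid-like cells, the background. With every barcode thinned to 2000 UMIs the shares were 17.2% and 11.7% in splanchnic-like, 22.3% and 22.6% in Pitx1/Tbx4/Tbx5-gated and 0.855% and 0 in erythroid-like cells (0 of 208 KO barcodes, which allows a share of up to 1.44%). Hoxa13 and Hoxd13 were found together in 141 WT and 127 KO splanchnic-like barcodes and in 96 and 121 Pitx1/Tbx4/Tbx5-gated barcodes.

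Splanchnic-like barcodes with a Hox13 UMI (268 in WT, 244 in KO) were set against those without (219 and 313). They were deeper, with a median of 17447 against 11663 UMIs in WT and 16442 against 13132 in KO, so the split depended in part on depth. Isl1, a LIM homeodomain gene of hindlimb and cloacal mesoderm, was at 350.5 against 91.4 CPM in WT and at 331 against 43.7 in KO. Evx1 and Evx2, the homeobox genes next to the posterior ends of the Hoxa and Hoxd clusters, were at 14.7 (11.8 to 18.1) against 0.63 (0.077 to 2.28) and at 12.99 (10.27 to 16.21) against 0.32 (0.0080 to 1.76) in WT. In KO they were at 12.6 (9.83 to 16.0) against 0.38 (0.046 to 1.36) and at 10.43 (7.90 to 13.52) against 0.75 (0.21 to 1.93). Hoxd12, the neighbour of Hoxd13, was at 41.6 against 9.17 CPM in WT and 38.8 against 4.33 in KO. Tbx5, a gene of forelimb and heart, was at 6.83 against 0.95 CPM in WT and 8.24 against 1.88 in KO. The hindlimb gene Pitx1 had opposite directions in the libraries, at 46.5 against 99.9 CPM in WT and 38.8 against 9.04 in KO, as had the gate gene Wnt2, at 34.1 against 99.0 and 23.8 against 15.8. The Hox11 genes were higher with a Hox13 UMI in each cluster that carries one: Hoxd11 was at 96.7 against 43.6 CPM in WT and 79.6 against 33.1 in KO, Hoxa11 at 16.3 against 9.48 and 12.99 against 6.40, and Hoxc11 at 14.5 against 7.59 and 10.8 against 2.64. The trunk gene Hoxc8 went the other way, at 65.6 against 140 CPM in WT and 49.2 against 103 in KO, as did Hoxc10 at 37.3 against 74.6 and 26.2 against 45.6 and Hoxa5 at 20.1 against 34.1 and 21.6 against 53.9. Hoxc13 had 1 UMI in the WT and none in the KO splanchnic-like barcodes.

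Sclerotome-like cells differed between the libraries in position code, with nearly equal totals. The sum of all members had a log2 ratio of 0.01 (-0.02 to 0.03), whereas the posterior groups were at 108 CPM in WT and 273 in KO (log2 1.34, 1.25 to 1.43). Hox9 was at 140 and 199 CPM (0.51, 0.43 to 0.60) and Hox4 to Hox8 at 1291 and 1064 (-0.28, -0.31 to -0.25). The higher ratios were those of Hox10 (1.46) and Hox11 (1.49), the groups that specify lumbar and sacral vertebrae, while Hox12 (-0.62, -1.37 to 0.13) and Hox13 (-1.06, -1.52 to -0.60) were below 0. Of 28 members with 100 or more UMIs in these cells, 9 were past 1.5-fold higher in KO, where 4.78% of 10544 genes were, and 1, Hoxc8, past 1.5-fold lower, where 2.21% were. The members' median was 0.28 and that of all genes 0.05.

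The members past the fold spanned several clusters. Hoxd9 was at 8.14 CPM in WT and 30.8 in KO (log2 1.92, 1.60 to 2.26), Hoxa10 at 24.9 and 81.4 (1.71, 1.53 to 1.90), and Hoxd10 at 11.3 and 34.1 (1.59, 1.32 to 1.88). Hoxd11 was at 12.1 and 36.1 CPM (1.58), Hoxa11 at 3.17 and 8.70 (1.46), Hoxc10 at 43.1 and 102 (1.25), and Hoxc11 at 2.53 and 5.23 (1.05). Paralogs of all 3 clusters that carry Hox10 and Hox11 genes therefore stood on the same side. Hoxa9 was at 44.5 and 71.3 CPM (0.68) and Hoxa5, far from them in the order, at 37.3 and 58.5 (0.65). Hoxc8 was at 524 and 337 CPM (-0.64, -0.69 to -0.59). None of the Hoxb members with 100 or more UMIs was past the fold in either direction.

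The share of sclerotome-like barcodes with a posterior UMI was 28.4% in WT and 45.1% in KO, and 11.95% and 26.46% after thinning to 2000 UMIs, against 2.56% and 2.40% in erythroid-like cells. Over the alternatives run, the posterior log2 ratio in sclerotome-like cells lay between 0.99 and 1.42, and 6 to 11 members were past the fold. These counts include another fold and another gene minimum, and the share over all genes was not counted with them. The class itself held 728 barcodes in WT and 1285 in KO, and the part of class size in the difference was not tested. Pax1 (274 and 300.4 CPM) and Pax9 (130 and 132) were at nearly the same levels, but both are gate genes of the class.

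A per-cell index, the mean paralog group of the Hox UMIs of a barcode with 5 or more, showed how the cells were spread. In WT sclerotome-like cells its middle 50% ran from 6.63 to 7.50 around a median of 7.02, and in KO from 6.45 to 8.20 around 7.17. The KO cells thus lay farther out on both sides: 13.98% of WT and 28.5% of KO barcodes had an index from 8 to 10, and 7.07% and 16.0% one under 6. Neural-like cells, by contrast, had medians of 7.29 and 7.33 with a middle 50% from 6.73 to 7.90 in WT and from 6.69 to 7.86 in KO. Some markers of the neural-like class differed between WT and KO. The gate gene Dbh was at 440 and 215 CPM and the check marker Fabp7 at 182 and 296. The gate gene Stmn2 was at 429 and 445 CPM. The part of class make-up in the neural-like values was not tested. Endothelial-like medians were 6.84 and 6.83, and coelomic-gonadal-like medians 7.58 and 7.61. Smooth-muscle-like medians were 6.58 and 6.15, and the Pitx1/Tbx4/Tbx5-gated medians 10.0 and 10.6.

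**Figure D4:**
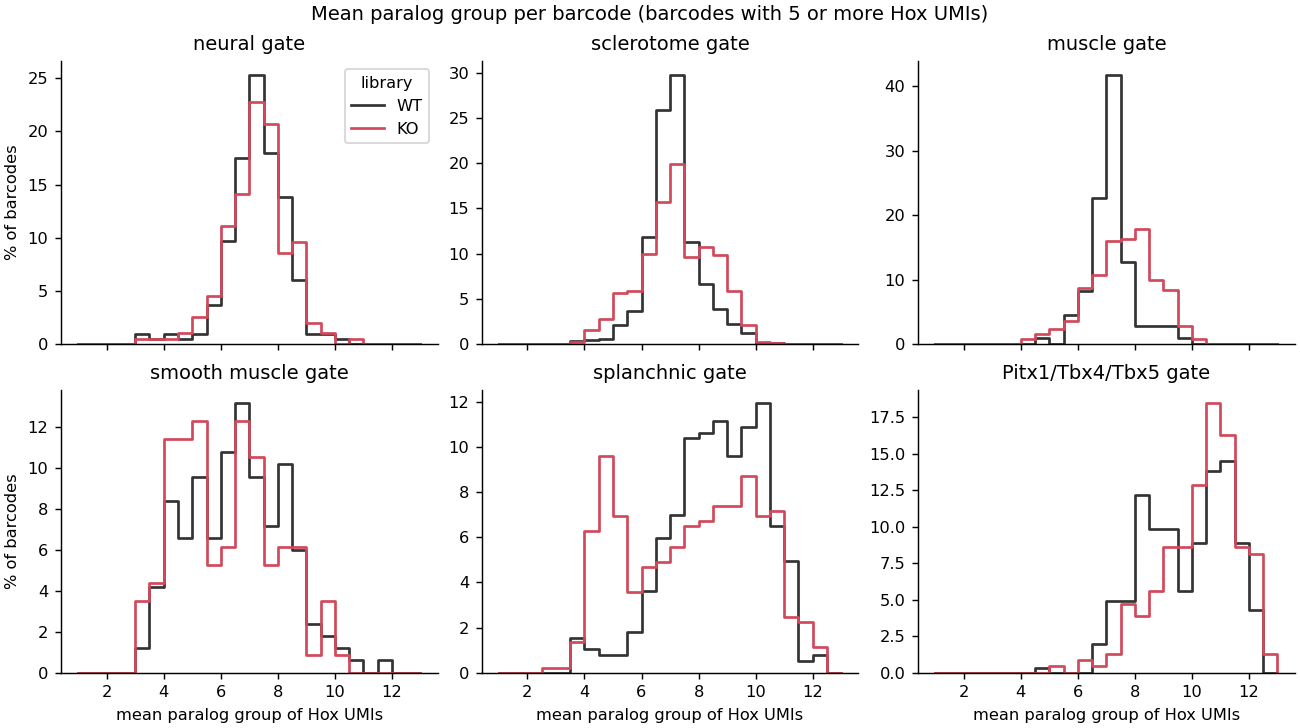
Percentage of barcodes (those with 5 or more Hox UMIs) against the mean paralog group of their Hox UMIs, in 6 gated cell classes, as step lines for WT and KO. The lines overlie each other in the neural gate (medians 7.29 and 7.33), the KO line is broader in the sclerotome gate, and in the splanchnic gate it has an added peak under 6 (5.97% of WT and 28.2% of KO barcodes).

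Muscle-like cells had a posterior ratio of the same sign, which depended on the gate. The posterior groups were at 42.6 CPM in WT (36.3 to 49.7) and 120 in KO (112 to 128), a log2 ratio of 1.49 (1.25 to 1.74), and Hox4 to Hox8 were at 847 and 390 CPM (-1.12, -1.19 to -1.05). In WT 2 of the 151 barcodes held 46 and 41 of the 162 posterior UMIs, whereas the highest in KO held 36 of 943. Of 16 members with 100 or more UMIs, 4 were past 1.5-fold higher (2.40% of 8192 genes were) and 4 past 1.5-fold lower (4.63% were). The higher ones were Hoxc10 at 16.0 and 60.6 CPM (1.92), Hoxd9 at 4.47 and 11.7 (1.39), Hoxa10 at 9.47 and 24.5 (1.37) and Hoxd11 at 6.57 and 16.7 (1.34). The lower ones were Hoxa7 at 195 and 64.3 CPM (-1.60), Hoxc8 at 396 and 146 (-1.43), Hoxa5 at 25.5 and 16.3 (-0.65) and Hoxc6 at 119 and 78.7 (-0.60). Of the gate genes, Myog, the differentiation factor, was at 889 and 955 CPM, and Pax7, the progenitor factor, at 56.0 and 53.5. The gate decided the size of the posterior ratio. With 1 more gate gene required, the posterior groups were at 97.8 and 114 CPM (log2 0.22), since 23 WT barcodes that had met several gates entered, 2 of which held 121 and 97 of the 400 posterior UMIs. In the barcodes that passed both rules the values were 43.7 and 102 CPM (1.22). The share of barcodes with a posterior UMI moved less, at 19.2% and 42.9% under the first rule and 24.1% and 43.8% under the stricter one. The class held 151 barcodes in WT and 392 in KO.

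**Figure D5:**
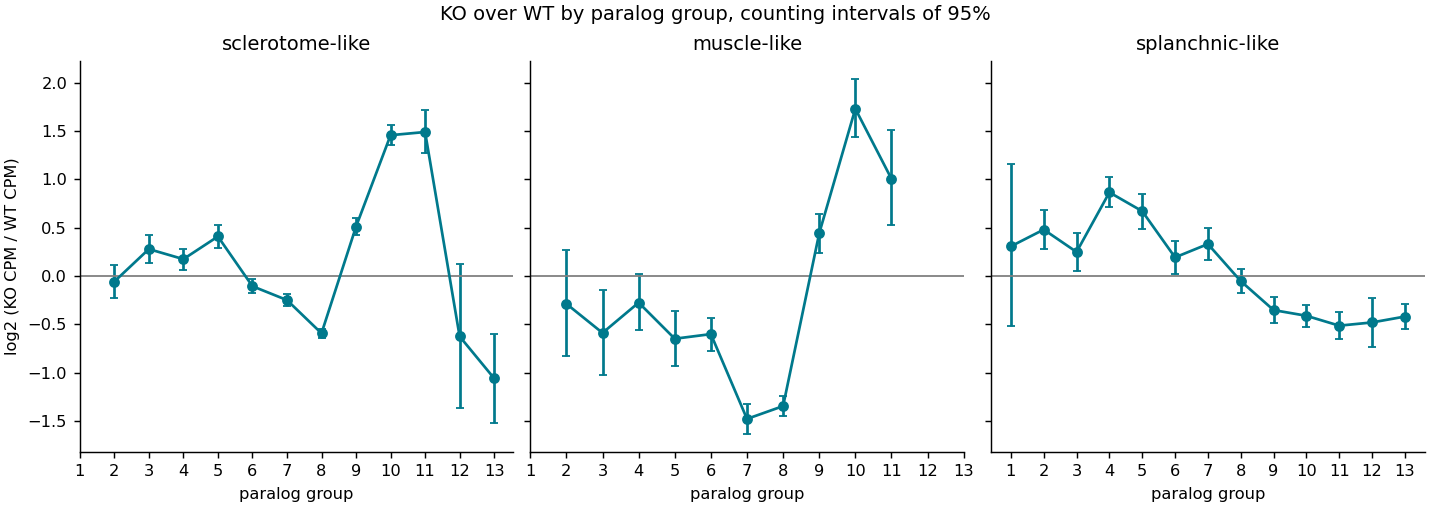
The log2 ratio of KO CPM over WT CPM by paralog group (points, 95% counting intervals) in sclerotome-like, muscle-like and splanchnic-like cells, for groups with 30 or more UMIs over both libraries. Hox10 and Hox11 lie above 1 in sclerotome-like (1.46 and 1.49) and muscle-like cells (1.73 and 1.01) and below 0 in splanchnic-like cells (-0.41 and -0.51), where Hox4 (0.87) and Hox5 (0.67) are highest.

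Splanchnic-like cells had the opposite sign. The posterior groups were at 410.2 CPM in WT and 302 in KO (log2 -0.44, -0.51 to -0.38), Hox9 at 102 and 80.0 (-0.35), Hox4 to Hox8 at 314 and 401 (0.35, 0.28 to 0.42) and Hox1 to Hox3 at 79.9 and 103 (0.36, 0.22 to 0.50). Of 30 members with 100 or more UMIs, 9 were past 1.5-fold higher, where 2.75% of 10026 genes were, and 3 past 1.5-fold lower, where 4.42% were. The 9 were all of groups Hox4 to Hox8, with Hoxa4 at 5.998 and 17.5 CPM (1.54), Hoxb8 at 11.6 and 25.2 (1.12), Hoxb6 at 7.85 and 15.0 (0.94), Hoxc4 at 13.2 and 25.2 (0.93), Hoxc5 at 7.42 and 13.3 (0.84), Hoxb5 at 9.92 and 16.6 (0.74), Hoxb7 at 9.05 and 14.9 (0.72), Hoxb4 at 33.5 and 54.2 (0.70) and Hoxa5 at 24.97 and 37.5 (0.59). Hoxc11 at 12.1 and 6.78 CPM (-0.84), Hoxb9 at 13.3 and 8.35 (-0.67) and Hoxd13 at 73.5 and 46.9 (-0.65) were lower. The Hoxb cluster as a whole was at 142 and 212 CPM (0.58, 0.48 to 0.68).

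The KO splanchnic-like cells included a group with an anterior code that was small in WT. Of the barcodes with an index, 5.97% of the WT (23 barcodes) and 28.2% of the KO (126) had a mean paralog group under 6. Those 126 KO barcodes held Nkx2-3, a homeobox gene of midgut and spleen mesenchyme, at 211 CPM against 60.8 in the other KO barcodes, and Isl1 at 25.3 against 254, Pitx1 at 1.47 against 30.4 and Wnt2 at 3.31 against 22.1. Hotairm1, the non-coding transcript at the anterior end of the Hoxa cluster, was at 62.4 CPM in them against 11.3. In the 23 WT barcodes Nkx2-3 was at 62.4 CPM against 28.0, and Hotairm1 at 62.4 against 14.1. In WT, barcodes of anterior code also lay outside the class. The gastro-splenic and the splanchnic gate were met together by 219 WT and 0 KO barcodes. These WT barcodes had a median index of 5.27 and a posterior share of 5.68% (4.999 to 6.42). The gastro-splenic gate genes had few UMIs in KO, so few barcodes there could meet both gates. Whether the 219 WT barcodes are the counterpart of the 126 KO barcodes was not tested. When barcodes of several gates were assigned to 1 class, the posterior log2 ratio in splanchnic-like cells was -0.09. In that setting 1 member was past 1.5-fold higher, and the share over all genes was not counted. The gate genes differed too, Nkx2-3 being at 32.8 CPM in WT and 104 in KO and Wnt2 at 56.5 and 19.9.

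Of the remaining classes, coelomic-gonadal-like cells had the posterior ratio farthest from 0. They (102 and 66 barcodes) were at 206 CPM in WT and 125 in KO (log2 -0.72, -0.93 to -0.51), with Hox10 at 138 and 75.4 CPM, while their Hox9 was at 160 and 197 (0.30). Smooth-muscle-like cells were at 114 and 91.5 CPM (-0.32, -0.52 to -0.12), with Hox5 at 90.9 and 141 (0.64). Neural-like cells were at 135 and 161 CPM (0.25, 0.12 to 0.38) and Pitx1/Tbx4/Tbx5-gated cells at 382 and 447 (0.23, 0.15 to 0.30). In the latter Hox8 was at 87.0 and 45.5 CPM (-0.93, -1.14 to -0.73). Endothelial-like cells, the lining of aorta and other vessels from which blood stem cells emerge, were at 65.1 and 56.0 CPM with an interval across 0 (-0.22, -0.49 to 0.06).

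The Hox cofactors hardly differed. None of the 9 TALE genes was past 1.5-fold in either direction over all kept barcodes, with a median log2 ratio of -0.02. Of all genes with 100 or more UMIs, 5.75% were past it higher and 5.06% lower. Meis2 was at 422 and 435 CPM, and Meis3, the farthest from 0, at 24.2 and 18.3 (-0.40). Among 14 Polycomb and trithorax genes none was past the fold either (median 0.08), with Kmt2a, which maintains active Hox genes, at 78.6 and 99.3 CPM (0.34) and Pcgf2, a Polycomb subunit, at 26.4 and 22.3 (-0.24).

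Of 16 factors that induce Hox genes or drive axis elongation, 11 had 100 or more UMIs, with a median of 0.10. Of these, 2 were past 1.5-fold higher and 1 lower, where 5.75% and 5.06% of all genes were. Fgf8, the growth factor of tail bud and limb ridge, had 89 UMIs in WT and 265 in KO (log2 1.65, 1.30 to 2.02). Cyp26b1, which degrades retinoic acid, was at 5.44 and 12.1 CPM (1.16), and within sclerotome-like cells at 10.2 and 23.8. Lin28a, an RNA-binding protein of early tissue, had 152 and 67 UMIs (-1.10), and Rarb, a retinoic acid receptor and target, was at 29.9 and 22.2 CPM (-0.43). Cdx1 had 23 and 4 UMIs, Cdx2 0 and 5, Cdx4 0 and 1, and Wnt3a 0 and 3, all near the limit of detection.

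Of 17 non-coding transcripts of the Hox clusters, 8 symbols were in the feature list, all with 100 or more UMIs. Hotairm1 was at 22.7 and 10.6 CPM (log2 -1.10, -1.19 to -1.01) and Hoxaas3 at 4.73 and 7.45 (0.66, 0.52 to 0.80). They were the only ones past the fold, where 5.06% of all genes were lower and 5.75% higher. The median of the 8 was -0.27. Hottip, from the posterior end of Hoxa, was at 1.74 and 1.25 CPM (-0.47) and Hotair, from within Hoxc, at 2.30 and 1.98 (-0.21, -0.44 to 0.02). Such transcripts overlap or adjoin Hox genes, so their UMIs depend on the strand setting of the counting, which is not given in the sources used here. Of 16 regional genes outside the family, 11 had 100 or more UMIs, with a median of -0.53. Of these, 5 were past 1.5-fold lower and 1 higher, where 5.06% and 5.75% of all genes were. This list, like the others, was chosen with earlier results of these data known. The counts therefore cannot show an excess over all genes. Barx1 (-5.60), Tlx1 (-3.88) and Nkx2-5 (-6.02) are the gate genes of the gastro-splenic-like cells, which were nearly absent from the KO library. Pitx1 was at 61.2 and 29.1 CPM (-1.07) and Tbx4 at 13.8 and 7.78 (-0.82). Ctrb1, an exocrine pancreas enzyme, had 6 and 174 UMIs (4.94). The other pancreas genes of the list went the other way. Cpa1 had 342 and 260 UMIs (-0.32, -0.56 to -0.08), Pdx1 6 and 0, and Ptf1a 2 and 0.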

How the data were processed

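Dissociated E11 AGM cells were run through the 10x Chromium Controller, 1 library per genotype, and the authors deposited unfiltered matrices of raw UMI counts per gene and barcode, empty droplets included. The submitters' processing notes name Cell Ranger 3.1.0 and the builds mm10 and GRCm38. The counting's strand setting is not given in the sources used here. Barcodes with 2000 or more UMIs and under 10% mitochondrial UMIs were kept (WT 8253 of 9207, KO 8165 of 9157). No column of another sample was present. Doublets were not called. Removal of barcodes over 50000 UMIs was run as an alternative.

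UMIs were summed over the barcodes of a class and divided by the class total (CPM). Barcodes were gated by UMIs of non-Hox marker genes into 13 classes. Those meeting no gate formed the remainder and those meeting several were mixed. The members and gene lists were chosen with earlier results of these data known. All members are named by paralog group, in full the member with most UMIs per group and the 5 highest and 5 lowest ratios among members with 100 or more UMIs. Some genes that this rule or the lists take in are not reported here. Genes in single classes, the Hox13 split and the index split were chosen after their values were seen. Free RNA was estimated from barcodes with 100 or fewer UMIs and from globin UMIs outside the erythroid gate. For shares at equal depth each barcode was thinned to 2000 UMIs. With 1 library per genotype no test was run. Intervals are exact at 95% and cover counting error only. UMI counts were not divided by transcript length. Ratio counts and intervals were tested on simulated data, as independent Poisson counts per gene, which is what the intervals assume. UMIs that cluster in single barcodes were not simulated. Alternatives changed the UMI and mitochondrial limits, barcodes removed, thinning, weighting, free RNA, gates, class mix, centring, fold and gene minimum. Coordinates of genes follow GENCODE M21 and promoters RefSeq on GRCm38.p6. Python 3.11.15, numpy 2.4.6, scipy 1.17.1, pandas 2.3.3 and matplotlib 3.10.9 were used.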

Additional observations from a re-analysis of the deposited data

Results flagged for a closer look

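The KO over WT log2 ratio of posterior (Hox10 to Hox13) CPM had opposite signs in different cell classes. It was 1.34 in sclerotome-like and 1.49 in muscle-like cells, and -0.44 in splanchnic-like and -0.72 in coelomic-gonadal-like cells. Over the alternatives run, it was as low as 0.22 in muscle-like cells and as near to 0 as -0.085 in splanchnic-like cells. No alternative was run for the coelomic-gonadal-like value. The difference between the classes was not tested, since each genotype was 1 library.

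Hoxb13, the most posterior Hoxb gene, had 30 UMIs in WT and 7 in KO, under the minimum of 100 for the comparisons. Of the 30 WT UMIs, 9 were in endoderm-like barcodes, a class too small to be compared (5 barcodes in WT and 2 in KO), and 21 elsewhere. None of the 7 KO UMIs was in endoderm-like barcodes.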

How the results depend on the processing

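Of 127 alternative values, 85 stayed within the counting interval of the reported value or within 1.5 times a reported count, and 42 moved. Of the log2 ratios and share differences 0 changed sign, and counts of members could not. The share of all genes past the fold was counted for the reported settings only and is lacking for the alternatives. The WT share difference could not move when only KO barcodes were removed. No paired analysis was possible because each genotype was 1 library, and no library could be left out. The posterior log2 ratio in sclerotome-like cells stayed between 0.99 and 1.42, in muscle-like cells between 0.22 and 1.55 and in splanchnic-like cells between -0.96 and -0.09.

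With under 5% mitochondrial UMIs (3600 and 2915 barcodes) the KO minus WT posterior share was 5.05 points, the summed log2 ratio 0.20, 8 members were past the fold higher and 0 lower, and the posterior log2 ratios were 1.25 in sclerotome-like, -0.96 in splanchnic-like and 1.04 in muscle-like cells, with 4 splanchnic members higher. Without KO barcodes holding a Pdgfrb UMI the share difference was 0.0795 points and the summed ratio 0.13. Without barcodes over 50000 UMIs the summed ratio was 0.24, with 3 members higher and a splanchnic ratio of -0.30. Thinning gave 1.91 points, 0.20, 2 members higher, a splanchnic ratio of -0.22 with 5 members higher, and a WT sclerotome minus splanchnic share of -36.3 points. The mean of barcode CPM gave 1.84 points, 0.24, 2 members and -0.27. One more gate gene gave -0.66 in splanchnic-like and 0.22 in muscle-like cells and -34.4 points in WT. Assigning barcodes of several gates gave 0.99 in sclerotome-like, -0.085 in splanchnic-like (1 member higher) and 0.60 in muscle-like cells, and -26.4 points. Weighting KO to the WT class mix gave 2.30 points, a summed ratio of 0.0044 and 0 members higher. The summed ratio was 0.087 without erythroid-like barcodes and 0.097 centred on the median gene, with 0 members higher in both. At 2-fold 0 members were higher over all barcodes and 2 in splanchnic-like cells, and with genes of 10 or more UMIs 3 were lower. The muscle-like ratio in barcodes passing both gates, chosen after seeing the data, was 1.22. The causes were not tested beyond the make-up of the gates given in the report.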

Other observations

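Barcodes that met no gate, 3655 in WT and 4085 in KO, had posterior shares of 25.4% and 26.2%. They are a large part of the kept barcodes, over which the shares were 23.4% and 24.7%. Hoxc8 was at 262 and 228 CPM in the ungated barcodes, against 186 and 175 over all kept barcodes. The ungated barcodes carried 22.9% and 26.5% of all Hox13 UMIs. Barcodes that met several gates (1138 and 629) carried 35.2% and 28.5%, so most Hox13 UMIs lay outside the classes compared.

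Nephric-like cells, of the mesonephric duct and tubules, were too few for a comparison (17 and 21 barcodes), with posterior shares of 27.5% (24.0 to 31.1) and 39.2% (36.2 to 42.3). WT endoderm-like barcodes held Hoxd13 at 187 CPM and Hoxa13 at 80.9 CPM, in 5 barcodes.

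In Pitx1/Tbx4/Tbx5-gated cells, barcodes with a Hox13 UMI held Hoxc8 at 46.9 CPM against 156 in those without in WT, and at 22.1 against 118 in KO.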
